A study of Mus musculus with 67 samples.

Results

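The response of Orai1 KO microglia to LPS was measured in 11 libraries of primary microglia cultures, 5 with LPS and 6 with vehicle, out of 67 in the series. They were taken by genotype and treatment alone, as the KO libraries labelled LPS or vehicle among the 34 of the culture table. The labels call the cultures Orai1 KO or Orai1 WT; their protocols give Orai1 fl/fl mice with Cx3CR1-cre/ERT2, a tamoxifen-inducible Cre driven by a microglial and macrophage gene, and Orai1 fl/fl mice without it as the strains of the animal experiments. If the cultures came from the same strains, an effect of Orai1 loss and one of the Cre cannot be told apart. Cells of both genotypes were grown from the hippocampus of mice at postnatal day 2 to 5, received hydroxytamoxifen at 1 µM, and were shaken off mixed glial cultures before use, per the labels' protocols. The LPS group was exposed for 6 h to LPS from E. coli at 10 ng/ml and the vehicle group to DMSO. Female cultures gave 2 LPS and 3 vehicle libraries, and male cultures gave 3 and 3. The library names hold 7 culture codes, of which 4 (KOF15, KOF16, KOM18 and KOM6) occur with LPS and with vehicle. The labels do not say from how many animals a culture was made, so the p-values measure the spread between cultures. For edgeR this spread was estimated over all 34 culture libraries, WT cultures and those with another stimulus included. The main fit has no term for the culture code, so it treats libraries of 1 code as separate cultures. Counts with the code as a block are given below.

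LPS, a component of the outer membrane of Gram-negative bacteria, is sensed on microglia by Toll-like receptor 4 with its partners CD14 and MD-2. The receptor signals through MyD88 and TRIF to NF-κB, MAP kinases and interferon regulatory factors, and within hours macrophages and microglia raise transcripts of cytokines, chemokines and interferon-stimulated genes and lower many others. Orai1 forms the pore of the store-operated calcium channel that STIM proteins open when calcium is lost from the endoplasmic reticulum. Calcium entering through it activates calcineurin and, through it, NFAT transcription factors.

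The LPS libraries held 7868694 to 13522077 counts (median 9214995) and the vehicle libraries 8774657 to 16070721 (median 10176063.5). Of the 45707 rows of the table, 28306 held a count and 15979 were tested. The table pairs no row with a gene, so a row is given by its number from the top, and Orai1, marker genes and gene lists were not analysed here. On the principal components of log2 CPM (CPM, the counts of a row relative to its TMM-scaled library size), the first component held 43.1% of the variance. The LPS libraries lay at 45.8 to 64.5 on it, and the vehicle libraries at -48.7 to -38.1. The second component held 12.5%, and both libraries of the female culture KOF15 stood apart on it, at -56.6 with LPS and -41.9 with vehicle, where the other 9 lay between -14.2 and 29.1. Counts of rows for KO cultures, KO females and KO minus WT are therefore also given without it. In 3 rows that separated the sexes among the sorted cells of this series, the 6 KO male cultures summed to at least 121 CPM and the 5 KO female ones to at most 6.03 CPM.

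**Figure D1:**
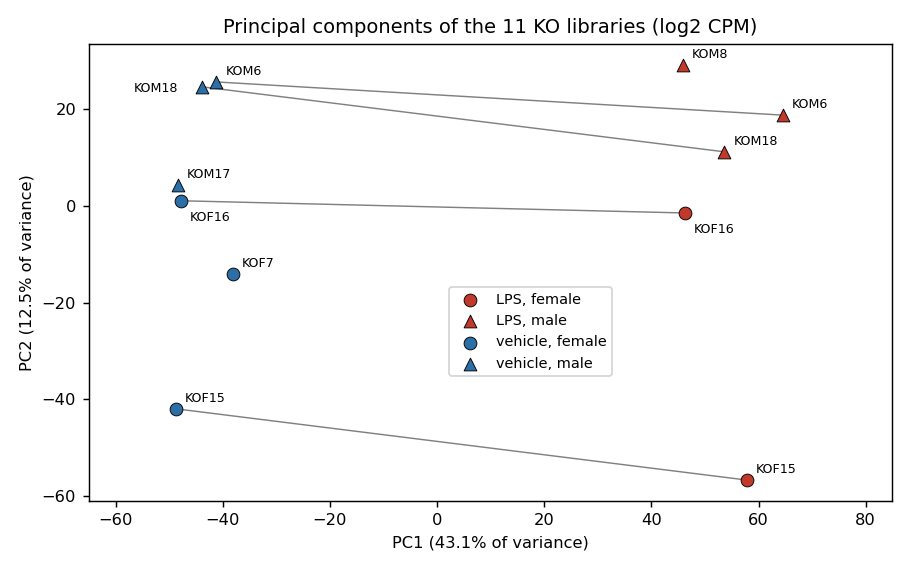
Principal components of log2 CPM over the 11 KO culture libraries, LPS in red and vehicle in blue, females as circles and males as triangles, with lines joining the libraries of 1 culture code. LPS libraries lie at 45.8 to 64.5 on the first component, vehicle libraries at -48.7 to -38.1, and both KOF15 libraries lie lowest on the second.

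LPS changed 3647 rows in KO cultures, 22.8% of those tested, by edgeR's quasi-likelihood test with a Benjamini-Hochberg adjusted p under 0.05. Of these, 1391 were higher with LPS (8.71%) and 2256 were lower (14.1%). The rows that were higher changed more: their median log2 fold change was 1.06 (quartiles 0.55 and 2.25), against -0.64 (quartiles -1.01 and -0.44) for those that were lower, and -0.14 over all rows tested. More than 2-fold changes made up 721 of the higher rows (51.8%) and 576 of the lower ones (25.5%). With rows at 0 counts in a group set to their bound, a floor of 3 counts over the group, 401 were more than 4-fold higher and 101 lower, 230 and 25 passed 8-fold, and 66 and 0 passed 32-fold. The medians of both lists were the same with these bounds. In bulk RNA, fewer cells of a type and less RNA per cell cannot be told apart.

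The balance of higher and lower rows depended on the processing. With RLE size factors in place of TMM, all fold changes moved up by 0.11 on the log2 scale in the median, the all-row median became -0.03, and 1919 rows were higher and 1461 lower. All 1391 rows higher under TMM were also higher under RLE, and all 1461 rows lower under RLE were lower under TMM. Of the rows called under both, 401 rose and 85 fell more than 4-fold. DESeq2 gave 2091 higher and 1730 lower. Its size factors are of the RLE kind and its all-row median was also -0.03, so it is no separate check of the scaling. The 11 libraries fitted alone, still with TMM, gave 1864 higher and 1602 lower over 15048 rows, with an all-row median of -0.02. Without KO female LPS replicate 2 (culture KOF16) the count of lower rows was 1331, beside 1383 higher. Without both libraries of KOF15 the counts were 1031 higher and 1667 lower.

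**Figure D2:**
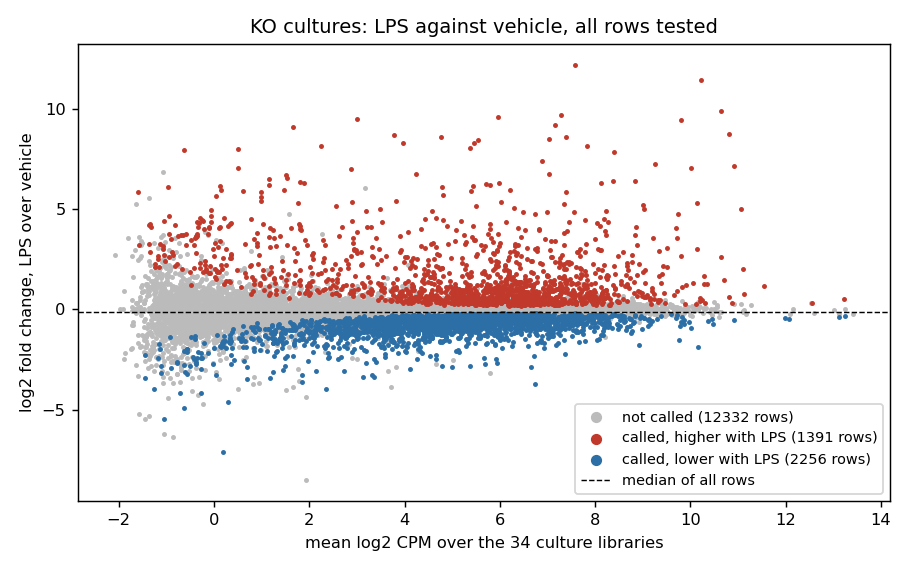
Fold change of LPS over vehicle in KO cultures (log2, vertical) against mean level over the 34 culture libraries (log2 CPM, horizontal), 1 point per row tested. Of the 1391 rows called higher 401 lie above 4-fold, and of the 2256 called lower 101 do; the dashed line is the all-row median of -0.14.

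In 964 of the higher rows no vehicle library reached the lowest LPS library, and in 1396 of the lower rows no vehicle library fell to the highest LPS library. Over all rows tested, called or not, the 2 groups did not overlap in 1027 rows with LPS higher (6.43%) and in 1619 with LPS lower (10.1%). Calls were unevenly spread over expression levels. Among 688 rows with a mean of at least 8 log2 CPM, 22.8% were higher with LPS and 14.2% lower, and among 3322 rows at 2 to 4 log2 CPM, 4.06% were higher and 14.4% lower. The median SE of a log2 fold change was 0.12 at or above 8 log2 CPM and 0.25 at 2 to 4 log2 CPM. Rows absent from a group were few: 12 of the higher rows had 0 counts over the 6 vehicle libraries and 2 of the lower rows had 0 counts over the 5 LPS libraries, while 26 higher and 6 lower rows had 1 to 3 counts there.

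Of 4 measures of the make-up of a library, 0 passed a test between the groups; this test takes no account of the culture codes. The 10 most abundant rows of a library took 7.20% ± 1.23 of its counts with LPS and 8.01% ± 1.30 with vehicle (SD, n = 5 and 6; exact permutation test, two-sided, p = 0.303, adjusted p = 0.645 over 4 measures). The 100 most abundant took 20.6% ± 1.43 with LPS and 20.5% ± 1.29 with vehicle (exact permutation p = 0.853). At 7868694 counts per library, 18588 ± 273 rows were seen with LPS and 18667 ± 202 with vehicle (exact permutation p = 0.621). The smallest p these 5 and 6 libraries allow is 0.00216. Within all 4 culture codes the share of the 10 most abundant rows was lower with LPS, at 9.13% with LPS and 10.1% with vehicle in KOF15, 7.67% and 8.02% in KOF16, 6.12% and 6.40% in KOM18, and 6.59% and 6.94% in KOM6. The share of the 300 most abundant, outside the 4 measures (exact permutation p = 0.212 over all libraries), was higher with LPS in all 4. It was 34.5% with LPS and 33.2% with vehicle in KOF15, and 33.5% and 31.1% in KOF16. In KOM18 it was 30.6% and 30.1%, and in KOM6 31.7% and 29.8%. The share of the 100 most abundant was lower with LPS in KOM18, at 18.9% and 19.1%, and higher in the other codes. That of the 30 most abundant was higher with LPS in KOF16, at 13.4% and 12.9%, and lower in the other codes. Rows seen at equal depth were more with LPS in KOM18, 18799 and 18792, and fewer in the other codes.

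Rows 693 and 6096 had the largest rise among rows at or above 1 log2 CPM. Row 693 stood at 200.1 and 64.4 CPM in the 2 female LPS libraries and at 162, 328 and 76.0 CPM in the 3 male ones, and in vehicle libraries it had 0 CPM in 5 and 0.282 CPM in KO female vehicle replicate 2. Its 10476 counts with LPS and 3 with vehicle gave a ratio of 4516 after scaling for depth (95% interval 1545 to 21901, counting error only). Its adjusted p by edgeR was 9.0e-09. Every LPS library was thus far above every vehicle library. Within the 4 culture codes with both treatments, the difference in log2 CPM was 10.1 in KOF15, 7.12 in KOF16, 9.81 in KOM18 and 10.8 in KOM6.

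Row 6096 had 694 and 367 CPM in female LPS libraries and 565, 1303 and 356 CPM in male ones, against 0, 0.13 and 0.79 CPM as the lowest, median and highest of the vehicle libraries. Its log2 fold change was 11.41 ± 0.83 (SE; edgeR adjusted p = 1.3e-10). The groups lay far apart in both sexes, and the KOF16 and KOM8 cultures had the lowest LPS levels of rows 693 and 6096 alike.

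Rows 11032 and 20036 had the largest fall by the same rule. Row 11032 stood at 0.61 and 0.44 CPM in female LPS libraries and at 0.26, 0.21 and 0.53 CPM in male ones, against 5.17, 6.32 and 9.16 CPM as the lowest, median and highest of the vehicle libraries. Its log2 fold change was -3.97 ± 0.47 (SE; edgeR adjusted p = 4.7e-07). Row 20036 stood at 14.8 and 10.9 CPM in female LPS libraries and at 7.99, 9.08 and 15.2 CPM in male ones, against 119.5, 148 and 199.5 CPM as the lowest, median and highest with vehicle. In both rows the groups did not overlap. The log2 fold change of row 20036 was -3.72 ± 0.42 (SE; edgeR adjusted p = 1.7e-07), and over the 4 culture codes its difference ran from -4.02 in KOM6 to -3.55 in KOF16.

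**Figure D3:**
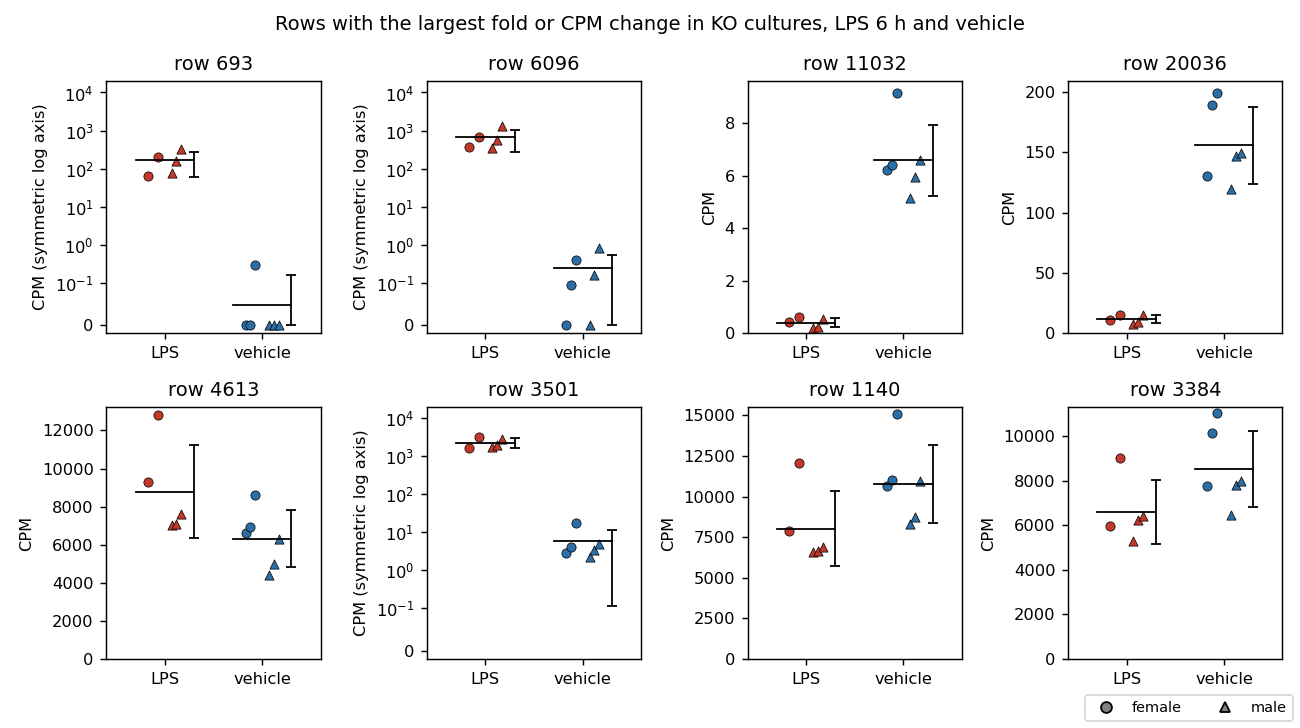
CPM of the 8 rows with the largest fold change (upper panels) or the largest difference in CPM (lower panels), 1 point per KO library, circles female and triangles male, with the mean and SD (cut at 0) of 5 LPS and 6 vehicle libraries. Rows 693, 6096 and 3501 are on a symmetric log axis; groups are apart in rows 693, 6096, 11032, 20036 and 3501 and overlap in rows 4613, 1140 and 3384.

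By difference in CPM rather than by fold, rows 4613 and 3501 gained most. Row 3501 had 3137 and 1641 CPM in female LPS libraries and 1970, 2846 and 1807 CPM in male ones, against 2.24, 3.77 and 17.2 CPM as the lowest, median and highest with vehicle. The groups were separate, the highest vehicle library being KO female vehicle replicate 3, and the log2 fold change was 8.73 ± 0.65 (SE; edgeR adjusted p = 1.9e-10). Row 4613 was abundant in both groups, at 12821 and 9315 CPM in female LPS libraries and 7037, 7636 and 7094 CPM in male ones, against 4414, 6484 and 8617 CPM as the lowest, median and highest with vehicle. The groups overlapped, since KO female vehicle replicate 1, the highest, lay above the 3 male LPS libraries, and means were 8781 ± 2439 CPM with LPS and 6321 ± 1496 CPM with vehicle (SD, n = 5 and 6). Its log2 fold change was 0.52 ± 0.12 (SE; edgeR adjusted p = 0.0025), and it was positive in all 4 culture codes, between 0.42 and 0.67. Together, these 2 rows took 1.00% to 1.70% of the counts in LPS libraries and 0.513% to 0.958% in vehicle libraries.

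Rows 1140 and 3384 lost most CPM, and their calls were close to the threshold. Row 1140 stood at 12040 and 7868 CPM in female LPS libraries and at 6593, 6678 and 6911 CPM in male ones, against 8295, 10803 and 15061 CPM as the lowest, median and highest with vehicle. It averaged 8018 ± 2305 CPM with LPS and 10792 ± 2394 CPM with vehicle (SD, n = 5 and 6), with a log2 fold change of -0.39 ± 0.11 (SE; edgeR adjusted p = 0.013). KO female LPS replicate 1 lay above 5 of the 6 vehicle libraries, so the groups overlapped, though the difference within each of the 4 culture codes was negative, from -0.43 to -0.32. The call of row 1140 was lost in 4 of 20 alternatives, RLE size factors among them (log2 fold change -0.28, adjusted p = 0.076). Without KO female LPS replicate 2 its log2 fold change was -0.21. Row 3384 averaged 6580 ± 1434 CPM with LPS and 8525 ± 1703 CPM with vehicle (SD, n = 5 and 6), with a log2 fold change of -0.34 ± 0.12 (SE; edgeR adjusted p = 0.048). Its groups overlapped, and it lost its call in 13 of 20 alternatives, with log2 fold changes of -0.36 to -0.17. The smallest of these, with an adjusted p of 0.449, came without KO female LPS replicate 2.

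Row 1 separated the genotypes, with 0 counts in all 12 WT libraries with LPS or vehicle. In KO cultures it stood at 4.596 and 3.06 CPM in female LPS libraries and at 2.51, 3.91 and 3.10 CPM in male ones, against 7.06, 10.2 and 13.7 CPM as the lowest, median and highest with vehicle. The groups did not overlap. The level with LPS was lower, by a log2 fold change of -1.57 ± 0.33 (SE; edgeR adjusted p = 0.0033, at most 0.032 over 20 alternatives). Within culture codes the difference was -1.06 in KOF15, -1.16 in KOF16, -1.87 in KOM18 and -1.39 in KOM6. Taken by sex, the male difference passed the threshold (-1.73 ± 0.43, adjusted p = 0.017) and the female one did not (-1.41 ± 0.50, adjusted p = 0.088), while the difference between the sexes was -0.32 ± 0.64 (adjusted p = 1.00 by edgeR).

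Rows chosen in WT cultures, which share no library with the KO ones, were read in each KO culture. WT cultures called 7677 rows for LPS against vehicle (48%), 3488 higher (21.8%) and 4189 lower (26.2%). In the KO cultures with both treatments, the rows higher in WT had a median difference of 0.36 in KOF15, 0.25 in KOF16, 0.27 in KOM18 and 0.35 in KOM6 (log2 CPM, LPS minus vehicle). The rows lower in WT had medians of -0.47 in KOF15, -0.42 in KOF16, -0.40 in KOM18 and -0.48 in KOM6, beside all-row medians of -0.12 in KOF15, -0.13 in KOF16, -0.12 in KOM18 and -0.14 in KOM6. KOF16 had the smallest share of WT-higher rows moving up, 68.5%, where the other 3 cultures had 79.0% to 82.7%. All 4 cultures moved up in 52.8% of the WT-higher rows and in 15.1% of all rows tested. All 4 moved down in 67.0% of the WT-lower rows and in 32.4% of all rows tested. Across rows, Pearson's r between the differences of 2 cultures ran from 0.569 (KOF16 and KOM18) to 0.707 (KOM18 and KOM6), given as a description over 15979 rows that share libraries within a culture.

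The summed level of these rows varied between LPS cultures. The 799 rows called over 4-fold higher in WT summed to 86369 and 53044 CPM in the female KO LPS libraries and to 69624, 97882 and 60851 CPM in the male ones, against 14205 to 17655 CPM in the 6 vehicle libraries. Every LPS sum lay above every vehicle sum, with KOF16 lowest and KOM6 highest among the LPS libraries. The 504 rows called over 4-fold lower in WT summed to 4242 to 5090 CPM with LPS and to 10893 to 13426 CPM with vehicle. In the first sum each sex held a culture in the upper and one in the lower part of the range, while in the second the LPS libraries lay close together.

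**Figure D4:**
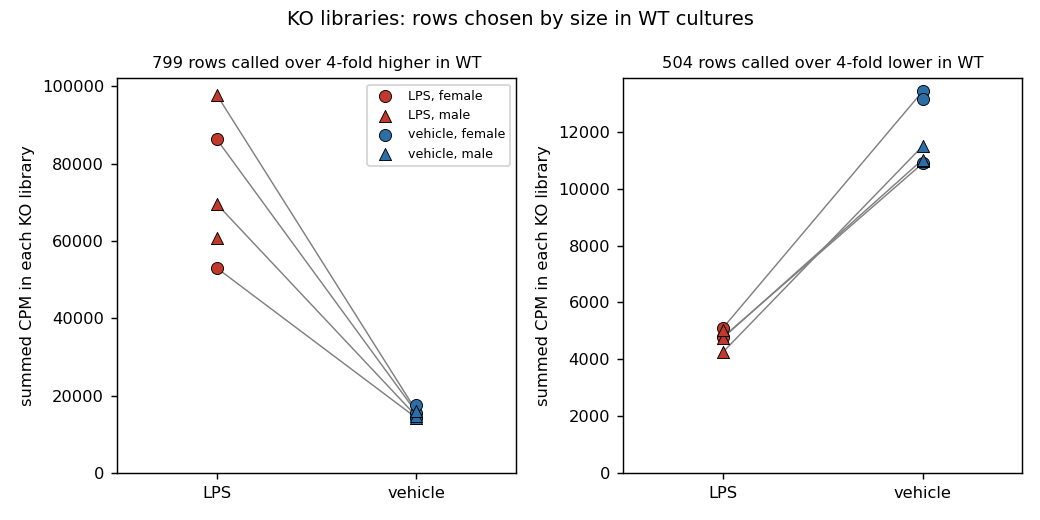
Summed CPM in each KO library of the 799 rows called over 4-fold higher (left) and the 504 called over 4-fold lower (right) with LPS in WT cultures, circles female and triangles male, lines joining libraries of 1 culture code. LPS libraries lie at 53044 to 97882 CPM on the left, all above the vehicle libraries, and at 4242 to 5090 CPM on the right, all below them.

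The KO response went largely in the direction of the WT response and was smaller in many rows. Of the 1391 rows higher in KO, 1274 were also higher in WT (91.6% of the KO list and 36.5% of the WT list of 3488), 6 were lower and 111 were not called. Of the 2256 lower in KO, 1833 were also lower in WT (81.2% of the KO list and 43.8% of the WT list of 4189), 18 were higher and 405 were not called. Among the rows called higher in KO, a list that favours large KO values, the median log2 fold change was 1.06 in KO and 1.73 in WT, and the KO change was the larger in 259 of 1391. Among those called lower in KO, the medians were -0.64 in KO and -0.85 in WT, and the KO change was the larger in 771 of 2256. Of the 401 rows more than 4-fold higher in KO, 379 were also called higher in WT.

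The difference between the responses, KO minus WT, was called in 2539 rows (15.9%), with 952 above 0 (5.96%) and 1587 below 0 (9.93%). Among these rows, 1481 were higher in WT with a response below it in KO and 5 with one above it, and 921 were lower in WT with a response above it in KO and 3 with one below it. The same WT libraries enter the WT calls and this test, so these splits partly follow from the choice of rows. Of the 3647 rows called in KO, 1064 differed from WT in this test. Of the 516 rows called in KO and not in WT, 77 passed the test of the difference. The 24 rows called in opposite directions in KO and WT all differed, which the choice of opposite calls makes nearly certain in advance. Without both libraries of KOF15, 817 rows were above 0 and 1765 below; leaving out KO female LPS replicate 2 gave 712 and 1043. The balance of the 2 directions hung on single WT libraries: without WT female LPS replicate 1, 1530 rows were above 0 and 836 below, without WT female LPS replicate 2, 1420 and 720, without WT male LPS replicate 1, 1437 and 760, and without WT male LPS replicate 3, 1451 and 747. The all-row median of the difference was 0.10 to 0.13 in these 4 fits and -0.05 with all libraries.

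**Figure D5:**
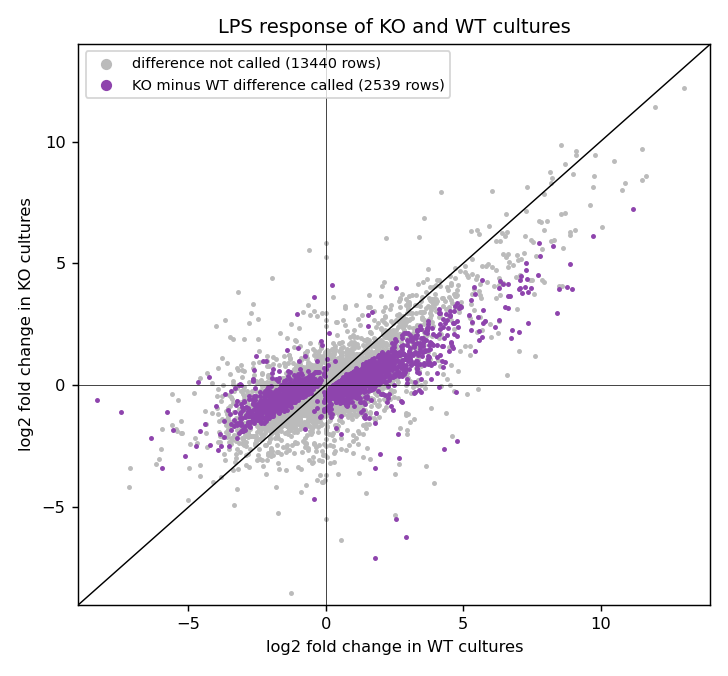
Log2 fold change of LPS over vehicle in KO cultures (vertical) against WT cultures (horizontal) for 15979 rows, purple where the KO minus WT difference was called (2539 rows). The diagonal is equality. Of the called points, 1481 were higher in WT and lie below the diagonal, and 921 were lower in WT and lie above it. WT calls and differences share the WT libraries, so these counts partly follow from the choice of rows.

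Among rows called in KO, row 14662 and row 7496 had the lowest adjusted p for a response above that of WT. Row 14662 stood at 97.0 and 93.5 CPM in female KO LPS libraries and at 104, 81.8 and 80.8 CPM in male ones, against 157, 185 and 242 CPM as the lowest, median and highest with vehicle. In WT it ran from 25.8 to 45.6 CPM with LPS and from 187 to 268 CPM with vehicle. It fell in both genotypes, by 1.05 ± 0.14 in KO and 2.77 ± 0.13 in WT on the log2 scale (SE), a difference of 1.72 ± 0.18 (edgeR adjusted p = 3.4e-06). LPS libraries of the genotypes did not overlap, while the vehicle libraries did.

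Row 7496 stood at 37.1 and 53.5 CPM in female KO LPS libraries and at 41.0, 37.7 and 36.5 CPM in male ones, against 66.3, 73.3 and 77.5 CPM as the lowest, median and highest with vehicle. In WT it ran from 18.8 to 31.8 CPM with LPS and from 114 to 174 CPM with vehicle, so both the LPS and the vehicle libraries of the genotypes were apart. The difference of its responses was 1.72 ± 0.19 (log2, SE; edgeR adjusted p = 3.4e-06).

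Row 2381 and row 9119 had the lowest adjusted p for a response below that of WT. Row 2381 stood at 111 and 114 CPM in female KO LPS libraries and at 112, 147 and 105 CPM in male ones, against 17.6, 23.0 and 28.4 CPM as the lowest, median and highest with vehicle. In WT it ran from 268 to 376 CPM with LPS and from 13.2 to 18.1 CPM with vehicle. It rose by 2.35 ± 0.11 in KO and 4.44 ± 0.12 in WT on the log2 scale (SE), a difference of -2.08 ± 0.16 (edgeR adjusted p = 1.3e-08). LPS libraries of the genotypes were apart and vehicle libraries overlapped.

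Row 9119 stood at 28.2 and 24.6 CPM in female KO LPS libraries and at 31.0, 35.9 and 27.4 CPM in male ones, against 16.3, 19.4 and 25.6 CPM as the lowest, median and highest with vehicle. In WT it ran from 30.3 to 71.5 CPM with LPS and from 3.74 to 5.88 CPM with vehicle. The vehicle levels of row 9119 were thus apart between the genotypes, while the LPS levels overlapped. It rose by 0.52 ± 0.16 in KO (SE; edgeR adjusted p = 0.021) and 3.38 ± 0.17 in WT on the log2 scale, a difference of -2.86 ± 0.24 (adjusted p = 3.9e-08). The difference in each of these 4 rows kept its call in 31 alternatives.

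Each sex gave fewer calls alone. KO females called 1916 rows (12%), 807 higher (5.05%) and 1109 lower (6.94%), and KO males called 1955 (12.2%), 948 higher (5.93%) and 1007 lower (6.3%). The sexes shared 647 higher rows (80.2% of the female list and 68.2% of the male one) and 626 lower rows (56.4% of the female list and 62.2% of the male one), and 0 rows were called in opposite directions. Over all rows tested, 71.6% had the same sign in both sexes. Of the 807 rows higher in females, 794 had the same sign in males, with a median log2 fold change of 1.48 there and 1.46 in females. Of the 1109 lower in females, 1092 had the same sign in males, with a median of -0.63 there and -0.90 in females. With the culture code as a block, the female count of lower rows was 1714. Counts within a sex leaned on single libraries. In females, 257 rows were lower without KO female LPS replicate 2, and 398 were higher without both libraries of KOF15. In males, 601 rows were lower without KO male LPS replicate 2, 619 without KO male LPS replicate 1 and 634 without KO male vehicle replicate 3. Fitted alone, the female libraries gave 409 higher and 159 lower, and the male ones 1515 and 1001.

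The difference between the sexes in the response, male minus female, was called in 0 rows by edgeR (0%), in 1 higher and 2 lower by DESeq2, and in 0 by limma-voom. An unadjusted p under 0.05 was reached by 559 rows, where 799 of 15979 would be reached by chance. The rule named row 9030 among the rows above 0. Its edgeR adjusted p of 0.99995 was the lowest but was tied across all named rows, so it does not rank them. By DESeq2 its adjusted p was 0.012. Row 9030 stood at 0.41 and 0.76 CPM in the female LPS libraries, against 25.8, 59.3 and 1.33 CPM in the 3 female vehicle libraries, and at 0.30 to 1.29 CPM in all male ones. The log2 difference of 6.27 ± 1.46 (SE) thus came with high levels in 2 of 11 libraries, those of KOF15 and KOF16 with vehicle. The other 3 rows that the rule named differed less: row 13072 by 1.11 ± 0.26, row 5223 by -1.05 ± 0.26 and row 19012 by -0.79 ± 0.20 (log2, SE), none of them called. Row 5223 stood at 51.4 CPM in KO female LPS replicate 1 (culture KOF15), above the other 10 libraries at 20.5 to 29.5 CPM, and without that library its difference was -0.56.

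The same genotype was also measured in microglia taken from whole brain by FACS, after LPS at 1 mg/kg or sterile PBS in mice of 10 to 12 weeks that had been given tamoxifen. These libraries differ from the cultures in age, tissue, preparation and kit, were scaled separately, and are compared as lists. After 24 h (7 LPS and 6 vehicle libraries), 3596 rows were called (23.4% of 15344), 1934 higher (12.6%) and 1662 lower (10.8%). Within the 2 runs of library numbers, the counts were 1168 higher and 1049 lower in the first and 607 and 539 in the second. Of 13382 rows tested in both preparations, 1196 were higher in KO cultures, and 436 of these were also higher in sorted cells (36.5% of the culture list and 23.2% of the sorted one, where 14.0% of all these rows were called higher after sorting). In the other direction, 79 of the 1196 (6.61%) were lower after sorting, beside 11.2% of all these rows. Of 2169 rows lower in KO cultures, 469 were also lower in sorted cells (21.6% of the culture list and 31.2% of the sorted one, beside 11.2% of all these rows), and 220 were higher (10.1%, beside 14.0%). Spearman's rho between the log2 fold changes was 0.244 over these rows, as a description.

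Sorted KO males at 6 h, the time of the cultures, gave 1093 calls (7.12%), 655 higher (4.27%) and 438 lower (2.85%), from 3 LPS and 3 vehicle libraries. Of the rows higher in KO cultures, 182 were also higher there (15.2% of the culture list and 29.0% of the sorted one, beside 4.69% of all these rows), and 164 lower rows were shared (7.56% and 41.5%, beside 2.95%). The 6 h counts were unstable: leaving out 1 library gave 112 to 1218 higher and 21 to 1125 lower, and a fit of these groups alone gave 0 and 0. The 6 h LPS libraries carry another run of library numbers than the vehicle ones, so the run and LPS cannot be told apart.

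Rows 15518, 3501, 11835 and 11032, named for a shared direction, changed strongly in cultures and in cells sorted 24 h after LPS. Row 15518 had 4.08 and 2.40 CPM in female KO LPS cultures and 2.32, 3.70 and 3.21 CPM in male ones, against 0 counts in all 6 vehicle cultures, at least 78.8-fold higher (floor of 3 counts over the group). In sorted KO cells it averaged 3.07 ± 3.87 CPM with LPS (SD, n = 7), against 0 CPM in all 6 vehicle libraries. Row 3501, described above, averaged 4.50 ± 2.62 CPM in sorted LPS libraries and 0.028 ± 0.068 CPM in sorted vehicle ones (SD, n = 7 and 6). Its separation was thus present in both preparations, at far lower levels after sorting.

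Row 11835 averaged 0.67 ± 0.39 CPM in KO LPS cultures and 7.19 ± 2.33 CPM in vehicle cultures (SD, n = 5 and 6), with no overlap and a log2 fold change of -3.63 ± 0.48 (SE; edgeR adjusted p = 2.6e-06). In sorted KO cells it was abundant and also fell, to 115 ± 42.9 CPM with LPS, against 673 ± 97.6 CPM with vehicle (SD, n = 7 and 6; log2 fold change -2.56 ± 0.52). Row 11032 averaged 1.63 ± 0.50 CPM in sorted LPS libraries and 9.61 ± 2.90 CPM in sorted vehicle ones (SD, n = 7 and 6; log2 fold change -2.54 ± 0.47).

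The rule named rows 28703, 14129, 11743 and 11735 for opposite directions. Row 28703 had 30.5 and 24.6 CPM in female KO LPS cultures and 33.95, 38.3 and 14.98 CPM in male ones, against 2.79, 4.81 and 6.09 CPM as the lowest, median and highest with vehicle (log2 fold change 2.56 ± 0.28, SE; edgeR adjusted p = 8.8e-08). In sorted cells it averaged 0.26 ± 0.57 CPM with LPS and 4.03 ± 1.68 CPM with vehicle (SD, n = 7 and 6; log2 fold change -4.11 ± 0.87). Fitted within either run alone, the sorted log2 fold change of row 28703 was larger, -5.67 and -5.12, and missed the threshold (edgeR adjusted p = 0.071 and 0.091). With both runs and without KO female LPS replicate 3 at 24 h it was -6.52, still called. Row 11735 went the other way, at 52.1 ± 6.20 CPM in LPS cultures and 197 ± 33.7 CPM in vehicle cultures (SD, n = 5 and 6; log2 fold change -1.94 ± 0.23), and at 89.0 ± 17.2 CPM with LPS and 17.0 ± 7.74 CPM with vehicle after sorting (SD, n = 7 and 6; log2 fold change 2.38 ± 0.37). Its culture groups and its sorted groups were each apart.

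The other 2 rows were low in cultures. Row 14129 averaged 1.63 ± 0.66 CPM in LPS cultures and 0.26 ± 0.31 CPM in vehicle cultures, and 5.42 ± 2.64 CPM in sorted LPS libraries and 26.6 ± 6.73 CPM in sorted vehicle ones (SD). Row 11743 averaged 1.20 ± 0.58 CPM in LPS cultures and 6.49 ± 2.43 CPM in vehicle cultures, and 5.01 ± 2.703 CPM in sorted LPS libraries and 0.31 ± 0.17 CPM in sorted vehicle ones (SD). The sorted differences of rows 14129 and 11743, and that of row 15518, were not called within the second run alone (edgeR adjusted p = 0.088, 0.070 and 0.13), which had fewer libraries. Their log2 fold changes there were -1.87, 3.30 and 6.22, against -2.27, 3.97 and 7.28 with both runs.

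KO cultures with Tg+PDBu (thapsigargin, which empties calcium stores, at 0.2 µM and the phorbol ester PDBu at 50 nM; 5 libraries) share their vehicle libraries with the LPS comparison, so only levels are set side by side. Rows 693, 6096 and 3501, high with LPS, averaged 0.27, 0.94 and 12.2 CPM with Tg+PDBu. Row 4613, also higher with LPS, averaged 4888 CPM with Tg+PDBu and 6321 CPM with vehicle. Rows 15518, 2381, 9119 and 14129, higher with LPS as well, averaged 2.09, 152.9, 42.5 and 1.096 CPM with Tg+PDBu. Each of these last rows was nearer its LPS level than its vehicle level. Rows 11032, 20036, 11835, 11743 and 11735, low with LPS, averaged 0.59, 24.1, 0.93, 1.30 and 54.3 CPM with Tg+PDBu, nearer the LPS level than the vehicle level in each. Row 28703 averaged 67.7 ± 10.1 CPM with Tg+PDBu and 28.5 ± 9.05 CPM with LPS (SD, n = 5 each). Row 1 averaged 0.13 ± 0.10 CPM with Tg+PDBu and 3.44 ± 0.82 CPM with LPS (SD, n = 5 each). The named rows therefore included some that stood at LPS-like levels with the other stimulus and some that did not.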

How the data were processed

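RNA-seq of KO and WT mouse microglia was analysed from 2 tables of raw counts that the authors deposited, whole numbers without normalization or row identifiers. The submitters' processing notes list GRCm38, Salmon 1.10.1, STAR 2.7.10a and Trim Galore 0.6.7; their roles and the counting settings are not given in the sources used here, and reads shared between overlapping or near-identical genes could not be assessed. Culture libraries were made from 100 ng of RNA, per the labels' protocols. Metadata deposited with the sorted counts call that preparation cultured; the labels were followed.

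Rows kept by filterByExpr (minimum count 10, minimum total 15) held 99.9% of the culture counts. After TMM scaling, edgeR 4.0.16 (quasi-likelihood F test; R 4.3.3) was fitted to all 34 culture libraries with a mean per genotype, sex and treatment and equal weight for the sexes. A row was called at a Benjamini-Hochberg adjusted p under 0.05. SE was derived from the fold change and F; log2 CPM values have a prior count of 2. Alternatives were RLE size factors, no filter, DESeq2 1.42.0, limma 3.58.1 with voom quality weights, the compared groups alone, replicate blocks and leaving out each library. Simulated counts for this comparison held 200 changed rows, far fewer than the 3647 rows called in KO cultures. The fit found 70 of the 100 rows changed 2-fold and 99 of the 100 changed 4-fold. False calls numbered 12, with 15403 rows tested. With so few changed rows, the simulation gives no error rate for the calls in KO cultures. It also cannot show how those calls depend on the size factors. Libraries of 1 group differed by more than sampling noise in all 10 pairs (lowest chi-square over its degrees of freedom 16.1).

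Culture codes in the library names were taken to pair samples. The deviations of LPS and vehicle libraries of 1 code correlated at 0.198 (KOF15), 0.252 (KOF16), 0.116 (KOM18) and 0.197 (KOM6). The highest correlation with a vehicle library of another code of that sex was 0.069, -0.069, 0.074 and -0.059 in the same order. The 2 female LPS libraries deviate by equal and opposite amounts, so the values of KOF15 and KOF16 are not independent. The 2 tables list rows in the same order, with a Spearman correlation of mean level of 0.853 when aligned and 0.379 to 0.393 when moved by 1 to 3 rows. Named rows were, for each quantity, at most 2 in each direction among called rows at or above 1 log2 CPM: the largest fold change in the same direction in both sexes, the largest difference in CPM, the lowest adjusted p for a difference between responses (called or not for the sexes, called in KO for KO minus WT), and the largest changes shared with or opposite to sorted cells; row 1 was added. The samples, rules and lists were chosen with earlier results of these data known. Intervals and floors cover counting error only, since reads carry no molecular identifiers.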

Additional observations from a re-analysis of the deposited data

Results flagged for a closer look

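Among 53 groups of 4 to 10 libraries, 8 held a library far from the others for a named row. The rule flags about 1 in 20 groups of normally distributed values. CPM values are bounded at 0 and need not follow that distribution, so 8 of 53 cannot be set against that rate. KO female vehicle replicate 2 stood high for row 693, at 0.282 CPM beside 0 CPM in the other 5, a pattern that the rule always flags. KO female vehicle replicate 1 stood high for row 11032, at 9.16 CPM. KO female vehicle replicate 3 stood high for row 3501 at 17.2 CPM, for row 14129 at 0.861 CPM and for row 11743 at 11.3 CPM. Among LPS libraries, KO female replicate 1 stood high for row 1140 at 12040 CPM, KO female replicate 2 for row 7496 at 53.5 CPM, and KO male replicate 2 for row 2381 at 147 CPM.

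In 6 named rows the LPS response differed between KO and WT by the interaction test of edgeR, on the log2 scale as KO minus WT. Over all 15979 rows tested, 2539 (15.9%) were called in this test. Rows 14662, 7496, 2381 and 9119 were named for the lowest adjusted p in this same test, so their passing follows from the choice. The difference was 1.72 in row 14662 and 1.72 in row 7496, -2.08 in row 2381 and -2.86 in row 9119. It was -2.07 in row 28703 (adjusted p = 0.0012), which rose by 2.56 in KO and 4.63 in WT, and 1.21 in row 11735 (adjusted p = 0.0073), which fell by 1.94 in KO and 3.16 in WT. With LPS, row 28703 averaged 28.5 CPM in KO and 28.3 CPM in WT, and with vehicle 4.83 and 1.13 CPM. Its LPS levels were thus alike, and its vehicle libraries were apart between the genotypes. Row 11735 averaged 52.1 CPM in KO and 28.3 CPM in WT with LPS, and 197 and 253 CPM with vehicle. Rows 28703 and 11735 are among the 4 rows named for opposite directions in cultures and in sorted KO cells; the other 2, rows 14129 and 11743, had no called difference between KO and WT (adjusted p = 0.13 and 0.71).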

How the results depend on the processing

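Of 676 recomputed values for 31 results on named rows, 653 kept their direction and side of the threshold, 22 fell short of it, 1 newly passed it (row 9030 with DESeq2) and 0 reversed. The named rows were chosen from these same data, mostly for a large change or a low adjusted p, so most were likely to keep their calls. The sex-difference results were not called at the start and count as kept where they stayed uncalled. Counts of rows depended more on the setting. RLE size factors gave 1461 rows lower in KO cultures and 616 in KO males. DESeq2 gave 2091 higher in KO cultures, 1385 higher in KO females, 1 and 2 for the sex difference, and 876 lower in sorted cells at 6 h. Without the filter, 1042 rows were below 0 for KO minus WT. Limma-voom gave 1436 higher and 2441 lower in KO males, and 1303 and 1354 in sorted cells at 6 h. The compared groups alone gave 409 higher and 159 lower in KO females, 1515 higher in KO males, and 0 and 0 in sorted cells at 6 h. In sorted cells at 24 h, the first run gave 1168 and 1049 and the second 607 and 539. The replicate block by culture code gave 1613 higher and 2826 lower in KO cultures, and 1714 lower in KO females. It moved no other count of KO cultures by over 1.5 times. Only the 4 culture codes with both treatments, fitted alone with the code as a block, gave 1782 higher and 1909 lower over 15040 rows. The all-row median of that fit was -0.05. The number in the titles pairs no KO male cultures, and as a replicate block it gave 1394 higher and 2436 lower. Leaving out both libraries of KOF15, chosen after seeing the data, gave 398 higher in KO females.

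Leaving out 1 library at a time gave 1182 to 1383 higher and 1331 to 2073 lower in KO cultures, 594 to 734 and 257 to 1196 in KO females, and 727 to 906 and 601 to 797 in KO males. For the sex difference it gave 0 to 6 higher and 0 to 1 lower, and for KO minus WT 712 to 1530 above 0 and 720 to 2072 below. In sorted cells at 6 h it gave 112 to 1218 higher and 21 to 1125 lower. Where an arm was left with 1 library, that library is assumed to vary like the other groups. The cause of these shifts was not tested. Depth limits rows of low level, where the median SE was 0.71 below 0 log2 CPM.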
